A study of Mus musculus with 6 samples.

Results

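The interferon-induced effector genes Ifit2, Ifit3, Isg15, Rsad2, Mx1, Mx2 and Usp18 were followed across unstimulated, ROS-treated and LPS-treated mouse dendritic cells. All probes whose symbol in the platform annotation is one of these 7 genes were taken, which gave 12 of the 25697 probes on the array, for 7 of the 7897 genes with a kept named probe: 3 for Ifit3, 3 for Usp18, 2 for Ifit2 and 1 for each of the others. Symbols were at hand for 10558 probes of the authors' log2 table only, so any further probe of these genes outside that table is unnamed here. That table lists just the probes detected above background on 3 or more arrays, a match that held for all 25697 probes. A probe detected on the 2 LPS arrays alone could thus not be named, and a missing name can reflect low detection. Dendritic cells were raised from bone marrow of a Rag2 knockout mouse 6 weeks old, C57BL/10NAGCSnAi-(KO) Rag2 on a C57BL background, over 6 days in medium with 1.5 ng/ml each of IL-4 and GM-CSF. Every group carries the Rag2 deletion, which removes mature T and B cells. There were 2 arrays per group. The unstimulated group received no listed stimulus. In the ROS group (reactive oxygen species), hematoporphyrin, a porphyrin that makes ROS when lit, was present at 1 µg/ml for 1 h and washed away, the cells were lit for 3 min at 3.1 mW per square cm with wavelengths of 450 to 600 nm and a peak at 515 nm, and RNA was prepared after 18 h. The LPS group received lipopolysaccharide, a cell wall component of bacteria sensed by a Toll-like receptor, at 1 µg/ml for 18 h. It is not stated if unstimulated cells saw hematoporphyrin, light or the extra 18 h of culture. The labels name 1 knockout mouse in the singular and no separate cultures, so p-values cover just the variation from sample to sample, and that may be technical.

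Type I interferons bind a receptor (IFNAR1 and IFNAR2) whose kinases JAK1 and TYK2 act on transcription factors such as STAT2, which works with IRF9 in the complex ISGF3. ISGF3 binds the interferon-stimulated response element (ISRE) in promoters of interferon-induced genes. LPS is known to make dendritic cells secrete interferon beta, which then acts on the same cells. The IFIT proteins bind viral RNA and hold back its translation. Viperin, the product of Rsad2, makes a chain-terminating nucleotide. The Mx proteins are dynamin-like GTPases that block incoming viral particles. ISG15 is a ubiquitin-like protein that is attached to other proteins, and USP18 removes it and also dampens signalling at IFNAR2. Many laboratory mouse strains carry defective Mx alleles, and the RefSeq annotation of C57BL/6J (GRCm38.p6) lists both Mx1 and Mx2 as transcribed pseudogenes. In that annotation Ifit2 and Ifit3 are neighbours, Rsad2 lies beside Cmpk2, a nucleotide kinase gene, and a single gene, Fam3b, stands between Mx1 and Mx2.

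The promoters of 3 members are shown because they hold the letters of an ISRE core. RefSeq promoter windows of GRCm38.p6, from 250 bases before to 50 bases after a gene start, were at hand for 4 of the 7 genes: Ifit2 (with more than one start), Ifit3, Isg15 and Rsad2. They were searched on both strands for an ISRE core, GAAA and again GAAA with any 2 bases in between. Of 32851 windows in the genome, 3.44% held the ISRE core. The windows below run 5′ to 3′ along the gene's strand, with each ISRE core match in capitals.
Ifit3, chr19:34583279-34583578, plus strand: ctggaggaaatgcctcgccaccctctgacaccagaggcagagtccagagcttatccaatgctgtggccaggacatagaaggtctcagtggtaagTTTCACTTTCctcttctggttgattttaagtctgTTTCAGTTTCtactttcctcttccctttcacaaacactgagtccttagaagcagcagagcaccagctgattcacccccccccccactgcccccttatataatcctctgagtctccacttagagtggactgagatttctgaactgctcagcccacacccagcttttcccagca
Isg15, chr4:156200769-156201068, minus strand: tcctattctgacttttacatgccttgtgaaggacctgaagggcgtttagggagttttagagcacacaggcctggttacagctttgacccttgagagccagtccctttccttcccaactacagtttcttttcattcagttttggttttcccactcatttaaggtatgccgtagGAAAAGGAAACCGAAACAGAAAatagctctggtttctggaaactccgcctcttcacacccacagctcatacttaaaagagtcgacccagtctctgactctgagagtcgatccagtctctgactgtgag
Rsad2, chr12:26456403-26456702, minus strand: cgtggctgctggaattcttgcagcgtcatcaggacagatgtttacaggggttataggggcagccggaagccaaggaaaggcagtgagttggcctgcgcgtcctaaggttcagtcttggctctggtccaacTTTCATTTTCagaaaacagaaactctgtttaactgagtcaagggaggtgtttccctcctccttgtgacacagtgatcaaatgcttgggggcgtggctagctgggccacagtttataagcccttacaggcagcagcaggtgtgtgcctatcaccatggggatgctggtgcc
Ifit3 had 2 separate matches, starting at positions -156 and -122 from the gene start. Isg15 had 3 matches that overlap one another and form 1 run in capitals, with the first starting at position -78. Rsad2 had 1 match, at position -120. Neither of the 2 Ifit2 windows held an ISRE core, nor did the window of Cmpk2. A match describes letters and shows no binding.

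Mean raw signal per array ran from 529 to 765, lowest on the LPS arrays, and 10428 to 11438 probes per array were detected above background at a detection p under 0.05. The number of arrays limits the precision. Of the kept 11622 probes 39.3% changed between ROS and unstimulated, 52.6% between LPS and unstimulated and 54.7% between LPS and ROS (limma, Benjamini-Hochberg adjusted p under 0.05). The first count, 4569, was 2706 without unstimulated array 1, 2697 without unstimulated array 2, 3021 without ROS array 1 and 3045 without ROS array 2. Quantile scaling assumes equal distributions, and it moved the split of calls. For LPS against unstimulated 2867 probes rose and 3241 fell, but 1343 and 5945 under median scaling and 970 and 7477 with no scaling, where the median probe changed by -0.49 and -0.73. For LPS against ROS 2952 were higher and 3400 lower, but 1686 and 5491 under median scaling and 1412 and 6226 with no scaling, at medians of -0.41 and -0.55. For ROS against unstimulated 2409 rose and 2160 fell, and with no scaling 1489 and 3157, at a median of -0.15. Changes below are relative to the quantile-scaled median. Of the dendritic cell markers 6 of 8 had a named probe, and all 6 were detected on every array except Itgax, which encodes the integrin chain CD11c and was detected on 1 of the 2 LPS arrays. H2-Ab1, an MHC class II chain, and Cd74, its invariant chain, were detected throughout, while Flt3 and Cd209a had no named probe. In whole-culture RNA, fewer cells of a type and less RNA per cell cannot be told apart.

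Members were arranged in the same order in all samples: on each of the 12 probes both unstimulated arrays lay below both ROS arrays, and both ROS arrays lay below both LPS arrays. This held in the normalised log2 intensities, in the raw signals and in the authors' log2 table. Over all probes, both arrays of the first group lay above both of the second on 38.8% of probes for ROS against unstimulated, 36.6% for LPS against unstimulated and 35.9% for LPS against ROS. These shares are for each pair of groups, and the share of all probes with the full order was not counted. After ROS 9 of the 12 member probes rose and 0 fell, where 20.7% of all probes rose and 18.6% fell. After LPS all 12 rose and 0 fell, where 24.7% of all probes rose and 27.9% fell. All 12 were higher with LPS than with ROS, where 25.4% of all probes were higher and 29.3% lower. The median log2 change over the 12 probes was 1.79 after ROS, 5.90 after LPS and 4.55 for LPS over ROS, beside 0.04, -0.04 and -0.05 over all probes. The 3 probes below background on both unstimulated arrays have fitted changes only, and with them at their lower bound the medians after ROS and LPS were 1.79 and 5.86. All 12 probes passed the filter on dim probes, which keeps a probe detected on both arrays of at least 1 group. The first Ifit3 probe passed through the LPS arrays alone, and 4 probes were not detected on both unstimulated arrays, so these had to be higher where they were detected.

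**Figure D1:**
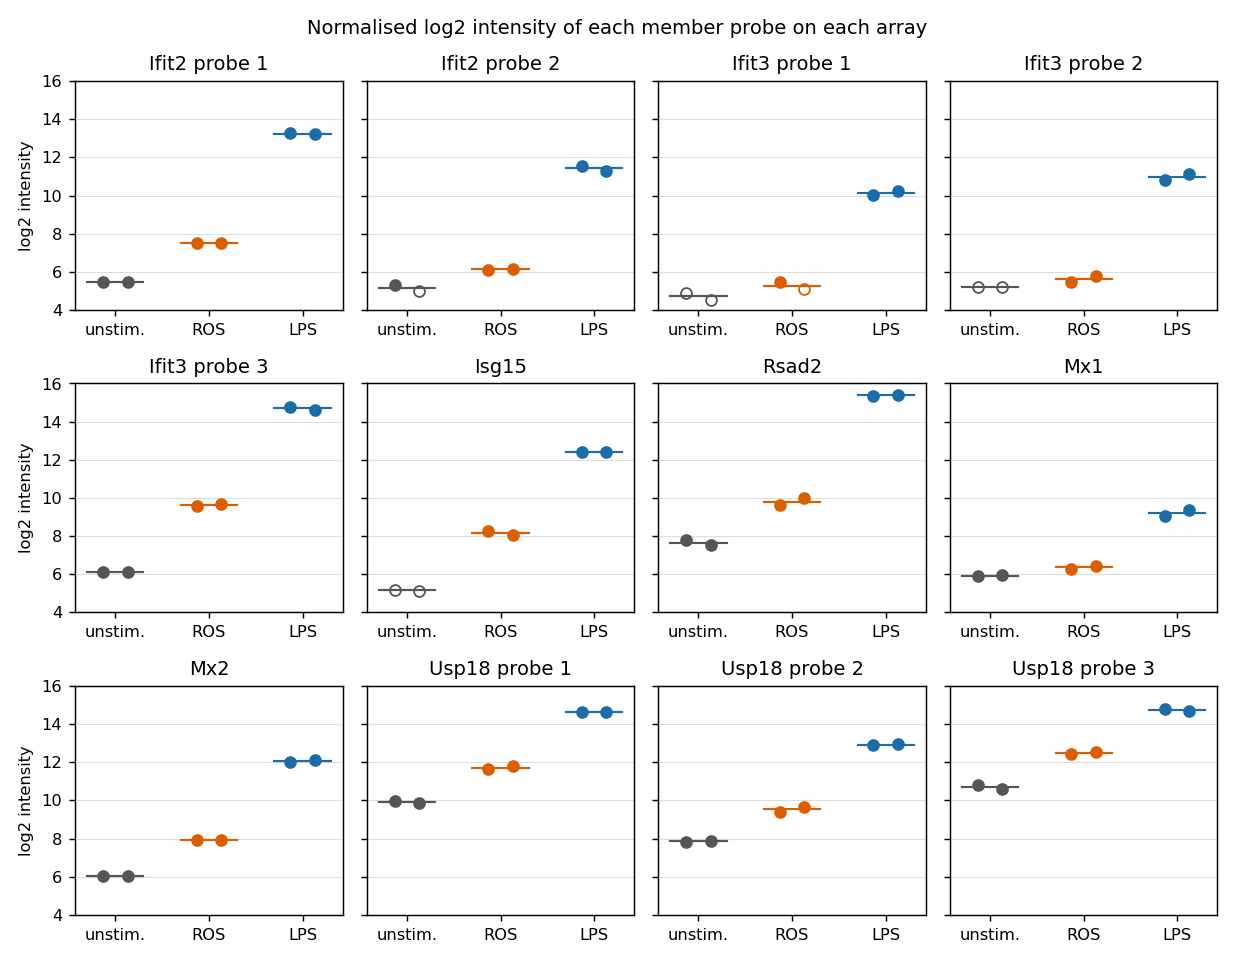
Normalised log2 intensity (vertical axis) of each of the 12 probes on each of the 6 arrays, by group (horizontal axis). Points are arrays, horizontal lines are group means and open points are arrays where the probe was not above background. On every panel the LPS points lie highest and the unstimulated points lowest, with the smallest ROS steps on Ifit3 probes 1 and 2 and on Mx1.

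Ifit2 and Ifit3, the RNA-binding IFIT genes, had the largest fitted LPS changes among the members, on 1 probe each. The other IFIT probes rose less after LPS than Rsad2 (7.72 ± 0.17). The first Ifit2 probe changed by 5.83 after LPS on the authors' log2 values, while the lowest Rsad2 change over all alternatives was 7.00. Against unstimulated cells the IFIT genes also had the widest spread of changes between probes, some of them dim. Probes are numbered here in order of their Illumina identifier. The first Ifit2 probe (ILMN_2981167) had log2 intensities of 5.44 and 5.45 on the unstimulated, 7.54 and 7.51 on the ROS and 13.28 and 13.21 on the LPS arrays. In raw signal it went from 188 and 186 through 333 and 329 to 9154 and 8304. The 3 groups lay far apart beside the distance between replicate arrays. Ifit2 rose on this probe by 2.08 ± 0.11 after ROS and by 7.80 ± 0.11 after LPS (log2 change ± SE over 2 arrays a group, with limma's adjusted p at 0.000125 and 2.88e-06), and LPS exceeded ROS by 5.72 ± 0.11 (adjusted p = 7.26e-06). The second Ifit2 probe (ILMN_2981169) read 5.31 and 4.98 without stimulus, 6.12 and 6.17 after ROS and 11.55 and 11.30 after LPS, and was below background on the second unstimulated array. Its log2 changes were 1.00 ± 0.16 after ROS and 6.28 ± 0.16 after LPS (adjusted p = 0.00486 and 5.36e-06). With the background correction used here, setting the undetected array to its detection level made these at least 1.81-fold and at least 70.2-fold. With no background correction the log2 changes of this probe were smaller, 0.30 after ROS and 4.13 after LPS. Both Ifit2 probes therefore rose in both comparisons, with a smaller size on the second.

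The third Ifit3 probe (ILMN_2944666) gave the largest changes of its gene against unstimulated cells. It read 6.13 and 6.10 in unstimulated cells, 9.60 and 9.68 after ROS and 14.79 and 14.59 after LPS, with no overlap. Its log2 change was 3.53 ± 0.12 after ROS (adjusted p = 5.76e-05), rank 7 of 11622 probes. After LPS the change of 8.58 ± 0.12 (adjusted p = 2.88e-06) was the highest of all 11622. The first Ifit3 probe (ILMN_1230458) was below background on both unstimulated arrays, at 4.90 and 4.52, and on the second of the ROS arrays, which read 5.48 and 5.08, and it read 10.02 and 10.24 after LPS. The second (ILMN_1246194) was below background on both unstimulated arrays at 5.22 and 5.19, read 5.47 and 5.80 after ROS and 10.83 and 11.13 after LPS. Neither passed after ROS (adjusted p = 0.0670 and 0.0856), and after LPS they were at least 28.9-fold and at least 52.0-fold higher (adjusted p = 1.29e-05 and 7.04e-06). Those bounds hold for the background correction used here, and with none the log2 changes after LPS were 3.11 and 3.69. The first probe did pass after ROS under median scaling (log2 change 0.63, adjusted p = 0.0468), with an adjusted p from 0.0468 to 0.282 over its alternatives. So the rise after ROS was called on 1 of the 3 Ifit3 probes. LPS over ROS was 4.86 ± 0.20, 5.35 ± 0.16 and 5.05 ± 0.12 on probes 1, 2 and 3. The first of these was at least 27.2-fold with the dim ROS array at its detection level. Probes 1 and 2 were dimmer, with mean LPS log2 intensities of 10.13 and 10.98 beside 14.69 on probe 3. They lay at or near background after ROS, and the part of dimness in the missing calls was not tested. Probe sequences were not used here, and Ifit3b is a near-identical copy of Ifit3, so which of these genes each probe reads is uncertain.

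Rsad2, which encodes viperin, had 1 probe, well above background on all arrays. Its log2 intensity was 7.78 and 7.54 without stimulus, 9.61 and 9.99 after ROS and 15.37 and 15.39 after LPS. The gap between the ROS arrays was the widest of any replicate pair of this gene, and the groups did not overlap. Rsad2 rose by 2.15 ± 0.17 after ROS and by 7.72 ± 0.17 after LPS (adjusted p = 0.000394 and 5.31e-06), and LPS exceeded ROS by 5.58 ± 0.17 (adjusted p = 7.96e-06). Raw LPS signals of 35426 and 35694 compare with highest signals of 61381 and 61108 for any probe on those arrays.

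The Mx genes differed from each other in size. Mx2 read 6.03 and 6.07 in unstimulated cells, 7.92 and 7.93 after ROS and 12.01 and 12.12 after LPS. It rose by 1.87 ± 0.11 after ROS and by 6.02 ± 0.11 after LPS (adjusted p = 0.000178 and 4.24e-06). Mx1 read 5.89 and 5.97, then 6.29 and 6.43, then 9.03 and 9.37 in the same order, detected on all arrays. It rose by 3.27 ± 0.15 after LPS (adjusted p = 2.66e-05), the lowest LPS change of the 12 probes. After ROS its log2 change of 0.43 ± 0.15 had a 95% interval from 0.06 to 0.80 and did not pass (adjusted p = 0.0663), although both ROS arrays lay above both unstimulated arrays. Mx1 did pass after ROS with only the groups compared (adjusted p = 0.0400), a fit that leaving out either LPS array also gives, within a range of 0.0400 to 0.258 over its alternatives. LPS exceeded ROS by 4.14 ± 0.11 for Mx2 and 2.84 ± 0.15 for Mx1 (adjusted p = 7.53e-06 and 3.79e-05).

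Isg15, the ubiquitin-like modifier, went from below background to a bright signal. It read 5.16 and 5.15 on the unstimulated arrays, below background on both, 8.26 and 8.06 after ROS and 12.41 and 12.40 after LPS. With the background correction used here, Isg15 was at least 7.35-fold higher after ROS and at least 139-fold higher after LPS (adjusted p = 8.22e-05 and 2.88e-06). With no background correction its log2 changes were 1.34 after ROS and 5.07 after LPS, which lie below those bounds. LPS exceeded ROS by 4.25 ± 0.12 on the log2 scale (adjusted p = 7.96e-06).

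Usp18, the protease that takes ISG15 off proteins, was detected on every array by all 3 of its probes, before any stimulus as well. The first (ILMN_2433990) read 9.99 and 9.89, then 11.63 and 11.81 after ROS, then 14.66 on both LPS arrays, where quantile normalisation gave equal ranks the same value. The second (ILMN_3054914) read 7.84 and 7.87, 9.42 and 9.66, and 12.91 and 12.95 in that order. The third (ILMN_3131679) read 10.78 and 10.59, 12.44 and 12.53, and 14.77 and 14.69. All 3 rose by a like amount after ROS, 1.78 ± 0.12, 1.68 ± 0.13 and 1.80 ± 0.12 (adjusted p = 0.000249, 0.000336 and 0.000268). After LPS they rose by 4.72 ± 0.12, 5.07 ± 0.13 and 4.05 ± 0.12 (adjusted p = 5.36e-06, 5.31e-06 and 8.51e-06). The 95% interval of the second, 4.77 to 5.38, lay above that of the third, 3.75 to 4.35, so the size after LPS depended on the probe. LPS exceeded ROS by 2.94 ± 0.12, 3.39 ± 0.13 and 2.25 ± 0.12, and the last was the smallest LPS over ROS difference among the 12 probes.

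**Figure D2:**
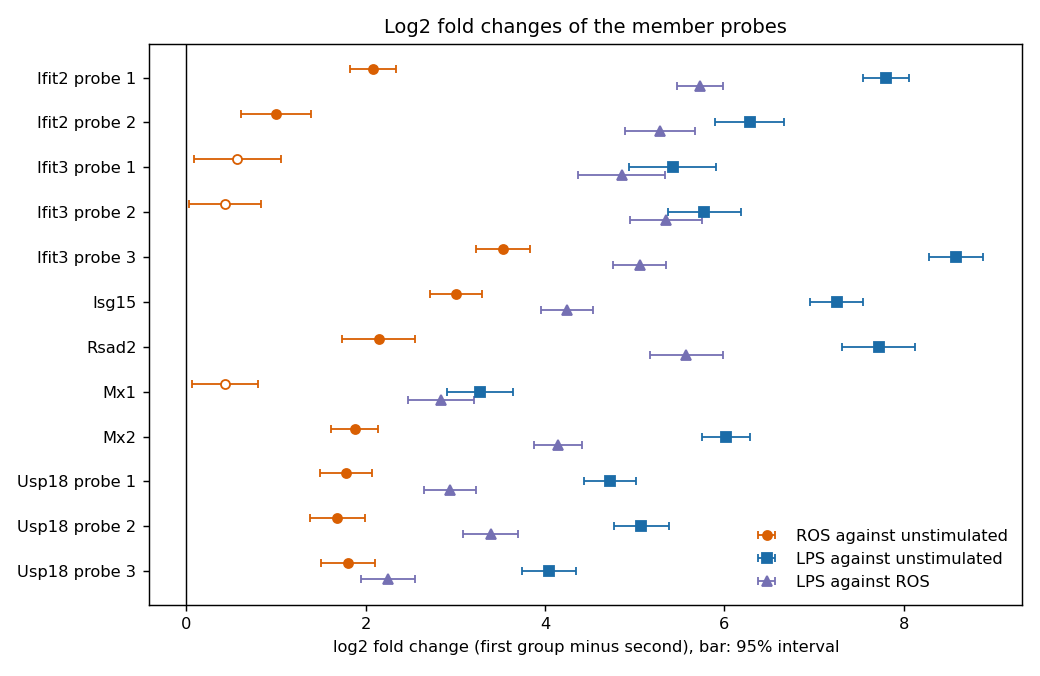
Log2 fold changes (horizontal axis) of the 12 probes (vertical axis) in each of the 3 comparisons. Points are fitted values, bars are 95% intervals from limma, and open points did not pass at an adjusted p under 0.05. LPS changes run from 3.27 for Mx1 to 8.58 for Ifit3 probe 3 and ROS changes from 0.43 to 3.53. Isg15 and Ifit3 probes 1 and 2 were below background on both unstimulated arrays, so their fitted changes against unstimulated cells are not bounds.

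By rank of log2 change among all probes, 4 member probes were among the 10 highest after LPS, 7 among the 20 highest and 11 among the 100 highest, with Mx1 at rank 140. After ROS 1 was among the 10 highest, 2 among the 20 highest and 4 among the 100 highest. Isg15 ranked 15, Rsad2 80, the first Ifit2 probe 97 and Mx2 139 after ROS. Isg15, at rank 8 after LPS, and Ifit3 probes 1 and 2, at ranks 27 and 15, were below background on both unstimulated arrays. Their ranks therefore rest on fitted changes from the floor. The ROS and LPS comparisons share the unstimulated arrays, so their sizes are given side by side and are not correlated.

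**Figure D3:**
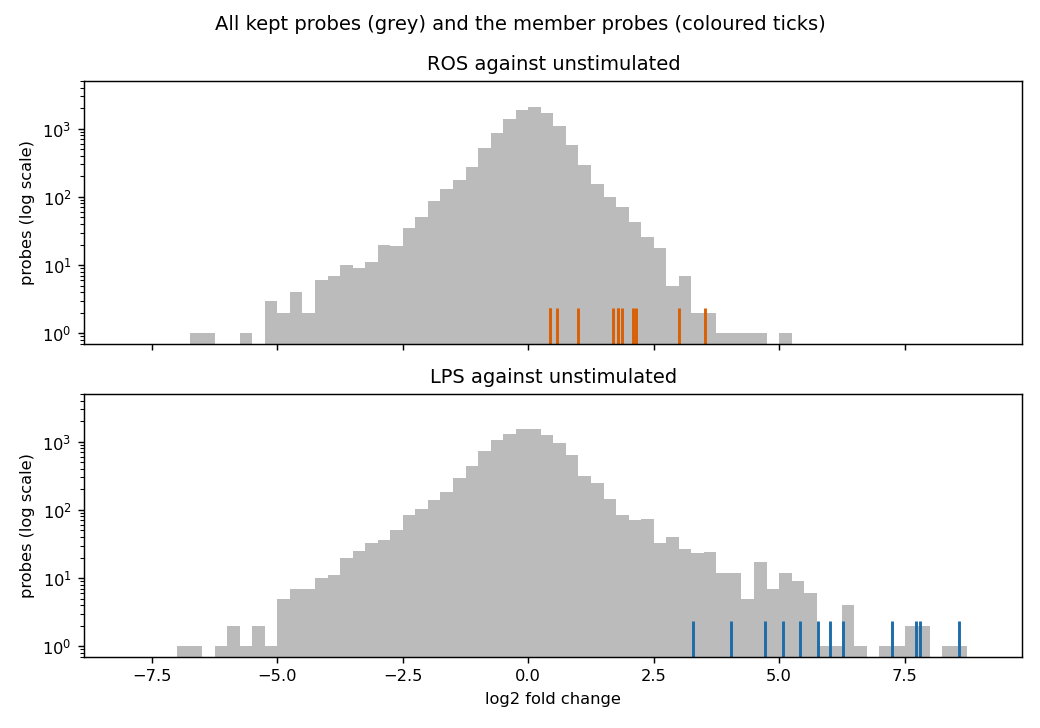
Number of probes (vertical axis, log scale) by log2 fold change (horizontal axis) for all 11622 kept probes in grey, with the 12 member probes as coloured ticks. Upper panel, ROS against unstimulated; lower panel, LPS against unstimulated. Member ticks lie in the right tail after LPS, from 3.27 to 8.58, and are spread from 0.43 to 3.53 after ROS.

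Genes that work beside the members were read from lists of pathway genes, each gene by its probe of highest mean intensity. Of the enzymes that attach ISG15, 2 of 4 had a named probe, and both rose in both comparisons. Of all genes 21.8% rose after ROS and 24.7% after LPS. Uba7, the activating enzyme, rose by 1.46 ± 0.11 after ROS and 2.07 ± 0.11 after LPS (adjusted p = 0.000352 and 4.52e-05). Ube2l6, the conjugating enzyme, rose by 2.10 ± 0.12 and 3.28 ± 0.12 (adjusted p = 0.000176 and 1.29e-05). LPS exceeded ROS by 0.61 ± 0.11 for Uba7 and 1.18 ± 0.12 for Ube2l6 (adjusted p = 0.00459 and 0.000461). Cmpk2 was below background on both unstimulated arrays and was at least 2.60-fold higher after ROS and at least 63.6-fold higher after LPS (adjusted p = 0.00126 and 7.77e-06). None of the 4 other IFIT genes on the list had a named probe.

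Of 8 interferon signalling genes 5 were measured, and 3 rose after ROS with 0 falls, beside 21.8% of all 7897 genes that rose. They were Irf7 (3.03 ± 0.17), the factor that amplifies interferon production, Stat2 (1.66 ± 0.13) and Irf9 (1.10 ± 0.12), both parts of ISGF3. After LPS the same 3 genes rose, by 7.90 ± 0.17, 3.40 ± 0.13 and 1.45 ± 0.12, and Tyk2, the receptor kinase, changed by -1.08 ± 0.12 (adjusted p = 0.000818). Ifnar2 did not pass against unstimulated cells in either comparison (log2 change -0.75 ± 0.38 after ROS and 0.87 ± 0.38 after LPS, adjusted p = 0.167 and 0.104). It was below background on 1 of the ROS arrays, and LPS exceeded ROS by at least 2.76-fold (limma adjusted p = 0.0132). Of 20 interferon genes 5 were measured, all dim, and 0 passed after ROS (limma), with 0 at an unadjusted p under 0.05 as well. After LPS Ifna6, an interferon alpha gene, rose by 0.64 ± 0.13 and Ifna1 was at least 1.43-fold lower (adjusted p = 0.00718 and 0.0194), while Ifna15, Ifne and Ifng did not pass. LPS over ROS was higher for 4 and lower for 1 of the 5 signalling genes and higher for 1 of the 5 interferon genes, Ifna6, where 24.9% of all genes were higher and 30.9% lower. Interferon beta (Ifnb1) and Ifnar1 had no named probe here, and a missing name can reflect low detection.

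The wider list of interferon-induced genes had 20 of 27 measured, and 15 rose and 1 fell after ROS, beside 21.8% and 18.0% of all genes. The largest were Ifi35 (1.94 ± 0.19), Parp14 (1.91 ± 0.11), an ADP-ribosyltransferase, and Adar (1.88 ± 0.16), which edits double-stranded RNA. Ifitm2, a membrane protein that blocks viral entry, fell by 0.61 on the log2 scale (SE 0.11, adjusted p = 0.00710), Ifitm1 had -0.41 ± 0.20 and Zbp1, a nucleic acid sensor, 0.00073 ± 0.18. After LPS 18 of 20 rose and 0 fell, beside 24.7% and 29.0% of all genes, led by Phf11d (4.41 ± 0.13), Bst2 (3.75 ± 0.19), which tethers budding virus, and Parp14 (3.71 ± 0.11). Ifitm1 and Samhd1, a nucleotide hydrolase, were the 2 that did not pass (adjusted p = 0.0624 and 0.0920). The next smallest change after LPS was that of Ifitm2, which rose by 0.63 ± 0.11 (adjusted p = 0.00425). The median log2 change of these 20 genes was 1.21 after ROS and 2.81 after LPS, where the 7 members by gene had 2.08 and 7.25 (7.12 with Isg15 at its bound). For LPS over ROS the medians were 1.64 and 4.25. Adar differed from the members here, with LPS over ROS at 0.05 ± 0.16 (adjusted p = 0.803), as did Ifi27l2a at 0.32 ± 0.33 (adjusted p = 0.438). The largest LPS over ROS differences of the list were Phf11d (3.16 ± 0.13), Lgals3bp (2.21 ± 0.13) and Daxx (2.11 ± 0.12), and Ifitm1, not detected after LPS, was also among the smallest. Of the dynamins, the superfamily of the Mx proteins, Dnm1l rose after ROS (0.50 ± 0.14, adjusted p = 0.0301) and Dnm2 after LPS (0.82 ± 0.11, adjusted p = 0.00142). Dnm1l did not pass after LPS (-0.22 ± 0.14), nor did Dnm2 after ROS (0.12 ± 0.11). LPS over ROS was -0.72 ± 0.14 for Dnm1l and 0.69 ± 0.11 for Dnm2 (adjusted p = 0.00563 and 0.00245).

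**Figure D4:**
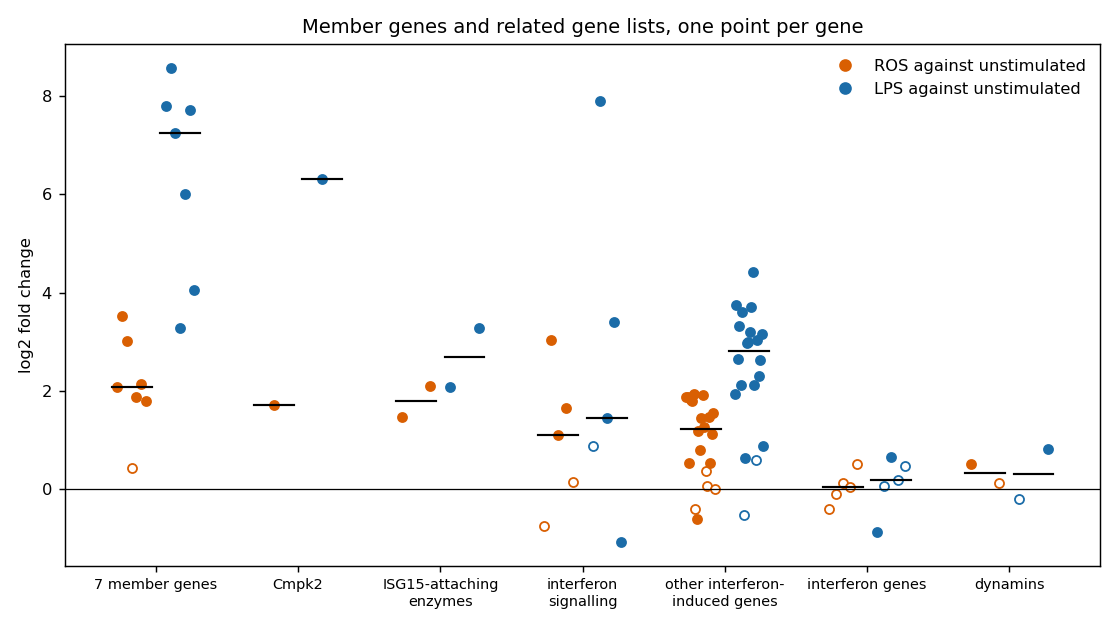
Log2 fold change (vertical axis) of each gene in the member list and 6 related lists (horizontal axis), after ROS in orange and after LPS in blue. Points are genes, each by its brightest probe, filled where the adjusted p was under 0.05, and black lines are list medians. The member median lies at 2.08 after ROS and 7.25 after LPS, and that of the other interferon-induced genes at 1.21 and 2.81.

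Likeness of pattern was measured as the root mean square distance, over the 6 arrays, between a gene's centred log2 profile and the mean centred profile of the 7 member genes. Among 7890 other genes the nearest were Cmpk2 (0.232 log2 units), Oasl1, an oligoadenylate synthetase-like gene (0.315), Serpinb2, a serine protease inhibitor (0.318), Spic, a transcription factor (0.354), and the phosphodiesterase gene Enpp4 (0.463). The members themselves lay from 0.158 (Mx2) to 1.28 (Mx1) from their own mean, so Mx2 is the member closest to the average profile. Serpinb2, detected on all arrays, had log2 changes of 1.77 ± 0.12 after ROS and 5.62 ± 0.12 after LPS. Cmpk2, Oasl1, Spic and Enpp4 were below background on both unstimulated arrays, where a profile is a floor.

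Cell type markers moved with the groups too. Of all genes 21.8% rose and 18.0% fell after ROS, and 24.7% rose and 29.0% fell after LPS. The 6 dendritic cell markers summed to a linear intensity of 77737 to 88631 on the unstimulated, 36093 to 36808 on the ROS and 44192 to 49376 on the LPS arrays. H2-Ab1 and Cd74 carry that sum: after ROS 3 of the 6 markers fell, while Zbtb46 (0.76 ± 0.12) and Dpp4 (0.72 ± 0.11) rose, and after LPS 5 fell and 0 rose. The summed linear intensity of 8 of 9 neutrophil markers was 48592 to 50510 on the unstimulated arrays, 36512 to 39249 on the ROS and 2270 to 2360 on the LPS arrays, where Ngp and Mpo were not detected. After ROS 4 of these 8 fell and 2 rose, Mpo by 1.16 ± 0.18 and Elane by 0.53 ± 0.12, and after LPS all 8 fell. That of 5 of 7 macrophage markers was 21906 to 24099, 9934 to 14759 and 17270 to 19139 in the same order. The brightest, Gpnmb, did not pass against unstimulated cells, whereas the complement genes C1qb and C1qc changed by -5.67 ± 0.13 and -5.06 ± 0.13 after ROS. After LPS 3 of the 5 fell, Mertk most (-2.49 ± 0.15), and Adgre1 rose (0.79 ± 0.14). For 5 of 7 mast cell and basophil markers it was 1596 to 1738, 6688 to 7026 and 12835 to 14593, and Hdc, which makes histamine, led the sum on the LPS arrays with a rise of 4.46 ± 0.13. The other 4, Cpa3, Fcer1a, Gata2 and Cma1, fell after LPS, and Fcer1a and Cma1 were not detected there. For 3 of 7 plasmacytoid dendritic cell markers it was 3048 to 3197, 2421 to 2475 and 3410 to 3476, with Siglech, a defining marker of that cell, lacking a named probe. Cox6a2 changed by -2.25 ± 0.12 after ROS and 2.37 ± 0.12 after LPS, while Tcf4, the brightest, changed by -0.65 ± 0.12 after LPS. The 3 of 6 natural killer cell markers with a probe summed to 309 to 357, 309 to 326 and 173 to 217, and none of 6 T and B cell markers had one. The 7 members summed to 2002 to 2255, 7928 to 8519 and 114143 to 118713. The part of these cell types in the members' changes was not tested.

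Background correction set the size of the changes for dim probes. On the authors' log2 values, whose background treatment is not stated, and in a run with no background correction, the log2 change was smaller by over 1.5 times on 8 of 12 member probes after ROS, 4 after LPS and 2 for LPS over ROS. On the authors' values the first Ifit2 probe changed by 0.86 after ROS and Isg15 by 1.37, and the 12 probes spanned 0.14 to 2.21. The same 9 and 12 probes were called there after ROS and LPS.

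**Figure D5:**
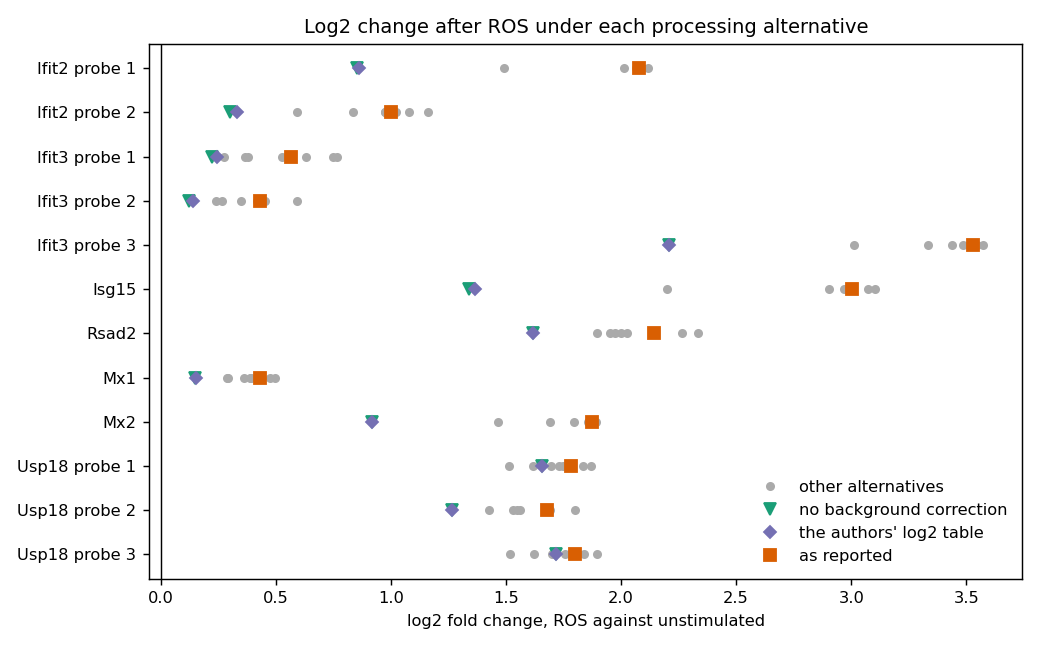
Log2 change after ROS (horizontal axis) of each member probe (vertical axis) as reported (orange squares), without background correction (green triangles), on the authors' log2 table (purple diamonds) and under the other alternatives (grey circles). All values lie above 0, and probes dim in unstimulated cells move most towards 0 when no background is removed, as Ifit2 probe 1 does from 2.08 to 0.85.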

How the data were processed

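Total RNA of 6 samples was measured on Illumina mouse bead arrays of 1 colour. The authors deposited a table of intensity per probe with a detection p-value for 5 of the 6 arrays. GenomeStudio 2009.2 is named in the submitters' processing notes. They also deposited a log2 table of 11220 probes. The deposited log2 values have equal medians and the same rank order as the intensities. How they were normalized is not stated in the labels or headers. Intensity columns were matched to samples through the LPS in their name or the labels' abbreviation of hematoporphyrin. The unstimulated columns bear another name and were matched as the remaining group. All 6 had the same probe ranks as the log2 column that carries that sample's own identifier.

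From the deposited intensity values, background was corrected with normexp (limma 3.58.1, R 4.3.3, offset 16), followed by quantile normalization and log2. For LPS array 2, which lacks a detection p-value, the detection limit was taken from the authors' log2 table. Its background mean and SD were estimated from the other arrays. Kept were the 11622 probes that in 1 group or more had a detection p under 0.05 on both arrays. A model with 1 coefficient per group was fitted (lmFit, eBayes), with Benjamini-Hochberg adjustment over all kept probes in each comparison and a threshold of 0.05. Only the model fit and its adjustment were tested on simulated data, with log2 values drawn around those of the authors' table. A probe below background on a group's arrays is given as "at least N-fold", with the dim arrays at their detection level. Such a bound holds only for this background correction and offset, and other processing can give smaller changes. Symbols came from GEO's platform annotation, with 1 symbol for 10558 probes of the log2 table, several for 0 and none for 662. Entrez IDs matched RefSeq for 10551, with 0 symbols changed.

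Named were every member probe, every measured gene of the IFIT, ISG15 conjugation, Cmpk2, interferon signalling, interferon and dynamin lists, the 3 largest and 3 smallest changes among the other interferon-induced genes, and the 5 genes nearest in pattern. Members and lists were chosen with earlier results of these data known. Alternatives changed the scaling, background correction, offset, dim-probe filter, detection threshold, replicate block, groups in the fit, variance prior and replicates included.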

Additional observations from a re-analysis of the deposited data

How the results depend on the processing

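Of 576 single-probe values under the 16 alternatives, 572 kept their direction and their side of the threshold, 4 passed the threshold only under the alternative and 0 reversed. Those 4 were Ifit3 probe 1 once and Mx1 in 3 settings that amount to 1 fit, both after ROS. In every comparison, leaving out an array of the group not compared repeats the fit with only the groups compared. Several other settings leave the log2 change as it was, so the 576 values are not independent. The number of member probes that rose after ROS was 9 to 10, and it was 12 under all 16 alternatives for LPS against unstimulated and LPS against ROS. Leaving out 1 array moved the count of all probes changed between ROS and unstimulated from 4569 to between 2697 and 4811, where fewer samples set the spread. With the replicate number as a block, 9, 12 and 12 member probes and 4104, 5846 and 6043 of all probes were called, in the order ROS over unstimulated, LPS over unstimulated, LPS over ROS. The labels share only a number, and deviations of same-numbered samples correlated at -0.10, 0.02 and -0.02 across probes. No array left out ended the call of a member probe. With an offset of 50 the log2 change after ROS fell to 1.49 for the first Ifit2 probe and 2.20 for Isg15. Dim signals on the unstimulated arrays limit the size of the changes of Isg15, Ifit3 probes 1 and 2 and Ifit2 probe 2. Ifit2 probe 1, Ifit3 probe 3, Mx1 and Mx2 were dim there too, though detected. Their lowest log2 changes after ROS over the alternatives were 0.85, 2.21, 0.15 and 0.92 in that order.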
